A study of Danio rerio with 10 samples.

Results

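These 60 genes had less transcript in wild-type zebrafish embryos at 4 h post fertilization (hpf) than at 2.5 hpf, and also less in 4.3 hpf embryos labelled sox19b morphant than in their controls. They were picked from the values themselves. A gene was taken where its mean log2 value at 4 hpf was below that at 2.5 hpf by at least 0.3, its mean in the arrays labelled morphant was below that in controls by at least 0.5, and its means at 2.5 hpf and in controls were above the brightest of 17 control probe sets for which the embryos hold no target. Such genes are called bright below, and genes not above that level in a group are called dim there. Of 8793 annotated genes, each represented by its brightest probe set, 5006 were bright, and the 60 were 0.682% of all genes and 1.2% of the bright ones. The choice used both comparisons, so the size and direction of the members' differences are a description and carry no test.

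The study profiled whole embryos on Affymetrix Zebrafish Genome Arrays around the mid-blastula transition, in 2 experiments with no array in common. In the first, 3 arrays labelled Sb morphant held embryos at 4.3 hpf that had received a morpholino against Sox19b at the 1-2 cell stage, and 3 control arrays held embryos of the same age, labelled wild type by the samples and described as placebo-injected in the design. In the second, wild-type embryos of different ages were compared, with 2 arrays at 4 hpf and 2 arrays at 2.5 hpf. Strain, sex and the number of embryos per array were not given in the sources used here.

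The egg supplies the embryo with messenger RNA and protein, and the first cell cycles run on that store without transcription. At the mid-blastula transition the cycles lengthen, the embryo's own genes come on and much of the maternal RNA is degraded, so a transcript that is lower after the transition than before it is usually read as maternal RNA being cleared faster than it is replaced. Sox19b, a SoxB1 transcription factor, is the member of its family that the zebrafish egg supplies, and it helps to open the first zygotic genes. A morpholino is a synthetic antisense oligonucleotide. The one used here was designed to bind an intron-exon junction of the sox19b precursor RNA, which is the reason its 25 bases are shown, 5′ to 3′, without any base marked.
sox19b morpholino: acatttgactgtggagaggaaaaaa

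Values were log2 intensities from robust multi-array averaging (RMA), where a difference of 1 is a 2-fold change. The median over an array's probe sets lay between 5.40 and 5.44 in the first experiment and between 6.16 and 6.26 in the second, so levels are not comparable between experiments as deposited. sox19b itself was higher in the arrays labelled morphant, at 9.13, 8.80 and 9.18 against 8.48, 7.63 and 8.09 in controls on its brighter probe set (difference 0.97, SE 0.20, limma adjusted p = 0.00214). Blocking of splicing need not lower the RNA, and the place of the probes relative to the blocked junction was not analysed here, so this level does not check the labels. Control replicate 2 stood apart from the other controls, with correlations of 0.990 and 0.992 against 0.996 between the other pair, and it touches the results below. Of the markers of early embryos, 14 of 14 were measured and none was dim in both groups of the first experiment, while 30 of 36 measured markers of late differentiated tissues were.

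Every member was lower on each of its low arrays than on each of its high arrays, in both experiments. In the arrays labelled morphant, the median over the 60 members was 7.16, 7.17 and 7.14, against 8.10, 8.23 and 7.94 in the controls. At 4 hpf the median was 7.73 and 7.70, against 8.09 and 8.10 at 2.5 hpf. The members' median SD per gene was 0.13 in the arrays labelled morphant and 0.19 in controls. It was 0.094 at 4 hpf and 0.064 at 2.5 hpf. Over all bright genes the median SD was smaller in each group, at 0.11, 0.14, 0.050 and 0.060 in the same order. The rule for members required these gaps, so nothing is read from their size beside the replicate spread. In whole embryos, fewer cells of a type and less RNA per cell cannot be told apart.

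The difference between arrays labelled morphant and controls ranged from -2.23 to -0.50, with a median of -0.76, and was -1 or below in 17 members. Among these, prmt3 was dim in the arrays labelled morphant, so its fold is a bound of at least 1.88. The difference between 4 hpf and 2.5 hpf ranged only from -0.70 to -0.30, with a median of -0.40, and was -0.5 or below in 9 members. In 60 of 60 members the first difference was the larger, which the higher threshold of the first experiment favours. The median over all 5006 bright genes was 0.03 in the first experiment and -0.03 in the second.

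With limma and an adjusted p below 0.05, 60 of 60 members were called lower in the first experiment, where 21.2% of all 15502 probe sets were called lower and 21.3% higher. In the second experiment 57 of 60 were called lower, beside 9.88% of all probe sets called lower and 9.66% called higher; ubqln4, pold1 and adgra3 were not called. The groups did not overlap in 60 of 60 members in each experiment, beside 27.3% and 24.6% of all probe sets. These counts follow from the choice of members and nothing is read from them.

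Among genes lower at 4 hpf, fewer were also lower in the arrays labelled morphant than were higher there. Of the 743 bright genes lower at 4 hpf by at least 0.3, 60 (8.08%) were lower in the arrays labelled morphant by at least 0.5, while 396 (53.3%) were higher there by at least 0.5, and the median difference was 0.58. Of the 339 bright genes higher at 4 hpf by at least 0.3, 106 (31.3%) were lower in the arrays labelled morphant and 44 (13.0%) were higher, with a median of -0.26. Among all 5006 bright genes, 748 (14.9%) were lower and 1435 (28.7%) were higher. The 60 members thus compare with 396 genes in the corner of opposite direction and with 44 in the corner of genes higher in both. These counts are not on like terms, since brightness was required in the groups where members are high. The other corners are low in 1 or both of those groups and lose genes to that rule. With brightness required in each corner's own higher groups instead, the corners held 504 and 54 genes. With adjusted p below 0.05 in place of the size thresholds, 108 genes were called lower in both experiments, 57 of them members, and 646 genes were called lower at 4 hpf and higher in the arrays labelled morphant.

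**Figure D1:**
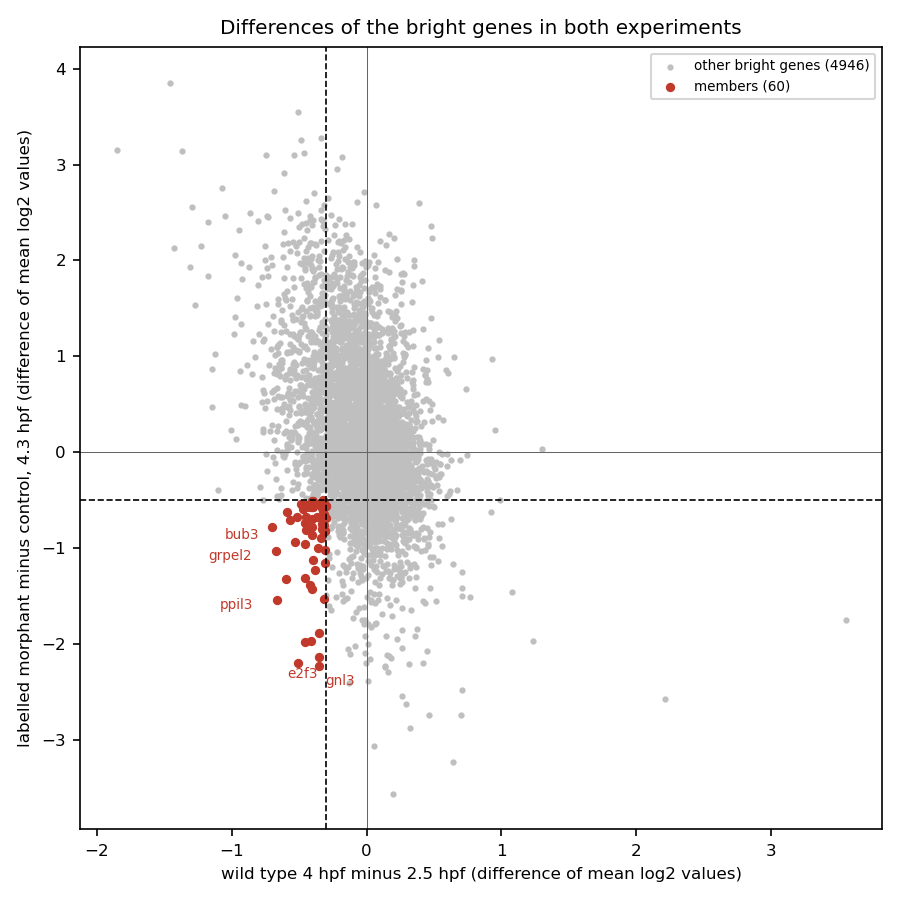
Each point is 1 bright gene, with the difference of mean log2 values between wild-type embryos at 4 hpf and 2.5 hpf on the x axis and between arrays labelled morphant and controls at 4.3 hpf on the y axis. Red points are the 60 members, grey points are the other 4946 bright genes, and the dashed lines are the thresholds of -0.3 and -0.5; the members fill the lower left corner, with e2f3 and gnl3 lowest.

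The members were sorted by known role into 9 groups. The cell cycle and DNA replication group of 7 had a median of -0.78 between arrays labelled morphant and controls, near the -0.76 of all members. Between 4 hpf and 2.5 hpf its median was -0.51, beside -0.40 for all members. Embryonic cleavage needs large stores of replication and mitotic factors, and E2F transcription factors drive the genes of S phase. e2f3, an activating member of that family, had 6.06, 6.07 and 5.78 in the arrays labelled morphant, against 8.21, 8.47 and 7.82 in controls. It had 6.80 and 6.67 at 4 hpf, against 7.17 and 7.33 at 2.5 hpf. The gap was 4.59-fold between arrays labelled morphant and controls (log2 difference -2.20, SE 0.16) and 1.42-fold between 4 hpf and 2.5 hpf (-0.51, SE 0.10). All 3 arrays labelled morphant lay far below every control, and both 4 hpf arrays lay below both 2.5 hpf arrays.

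e2f8, a repressor of the same family, was lower by a similar amount in both comparisons. It had 7.71, 7.27 and 7.39 in the arrays labelled morphant, against 8.14, 8.25 and 7.87 in controls, and 7.59 and 7.29 at 4 hpf, against 7.91 and 8.14 at 2.5 hpf. The differences were -0.63 (SE 0.15) and -0.59 (SE 0.12). The groups did not overlap, though morphant-labelled replicate 1 lay only a little under control replicate 3.

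bub3, a kinetochore protein of the spindle checkpoint, had the largest drop in wild type of all members. It had 8.46 and 8.39 at 4 hpf, against 9.20 and 9.06 at 2.5 hpf (difference -0.70, SE 0.09, 1.63-fold). It had 7.80, 7.85 and 7.90 in the arrays labelled morphant, against 8.38, 8.95 and 8.57 in controls (-0.78, SE 0.14). The replicates agreed closely everywhere except in the controls, where replicate 2 was highest. spdl1, which brings dynein to kinetochores, followed the same pattern, with differences of -0.67 (SE 0.16) and -0.52 (SE 0.09).

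rpa2, a subunit of the single-strand DNA-binding replication protein A, had 6.43, 6.58 and 6.36 in the arrays labelled morphant, against 8.10, 7.99 and 7.86 in controls (-1.53, SE 0.11, 2.88-fold). At 4 hpf it had 8.29 and 8.55, against 8.76 and 8.71 at 2.5 hpf (-0.32, SE 0.10). Its difference between arrays labelled morphant and controls was thus large and well outside the replicate spread, and its wild-type difference was near the threshold. cdc26, a small subunit of the anaphase-promoting complex, had differences of -0.81 (SE 0.12) and -0.33 (SE 0.09). pold1, the catalytic subunit of DNA polymerase delta, had -0.56 (SE 0.11) and -0.30 (SE 0.10).

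The group of 8 genes for ribosome assembly and translation had the largest median difference between arrays labelled morphant and controls, -1.01, and a median of -0.40 between 4 hpf and 2.5 hpf. The nucleolus, where ribosomes are built, forms in the zebrafish embryo around the onset of its own transcription. gnl3, the nucleolar GTPase nucleostemin, was the member with the largest difference in the first experiment. It had 6.04, 6.19 and 6.22 in the arrays labelled morphant, against 8.21, 8.71 and 8.21 in controls (-2.23, SE 0.15, 4.68-fold). It had 6.70 and 6.42 at 4 hpf, against 6.83 and 6.99 at 2.5 hpf (-0.35, SE 0.11, 1.28-fold). The gap in wild type was small, and 4 hpf replicate 1 came close to 2.5 hpf replicate 1.

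mrto4, which helps to assemble the stalk of the large ribosomal subunit, had 5.74, 5.95 and 5.56 in the arrays labelled morphant, against 6.99, 7.56 and 6.98 in controls (-1.42, SE 0.17, 2.68-fold). mphosph10, a protein of the U3 particle that processes the small-subunit precursor RNA, had 6.82, 6.84 and 6.52, against 8.01, 8.12 and 7.98 in controls (-1.31, SE 0.12, 2.48-fold). Both were also lower in wild type, by -0.41 (SE 0.09) for mrto4 and -0.45 (SE 0.10) for mphosph10. dkc1, the pseudouridine synthase of the H/ACA particles that modify ribosomal RNA, had 8.37, 8.34 and 8.29 in the arrays labelled morphant, against 9.18, 9.37 and 9.02 in controls, and 8.26 and 8.35 at 4 hpf, against 8.75 and 8.66 at 2.5 hpf. Its differences were -0.86 (SE 0.12) and -0.40 (SE 0.09).

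eif2a, a factor that can deliver the initiator transfer RNA to the ribosome, had differences of -1.0 (SE 0.12) and -0.36 (SE 0.09). riok2, a kinase of late small-subunit maturation, stood just inside the first threshold, at -0.50 (SE 0.13) and -0.40 (SE 0.10). For 2 members of the group a low level allowed only a bound. prmt3, an arginine methyltransferase that acts on a ribosomal protein, was dim in the arrays labelled morphant and at least 1.88-fold lower there. nopchap1, known in human cells as a chaperone for the assembly of box C/D particles, was dim at 4 hpf and at least 1.04-fold lower there.

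The splicing and RNA modification group was the largest, with 10 members and medians of -0.58 and -0.43. ppil3, a prolyl isomerase found in spliceosomes, led it. It had 6.17, 6.37 and 6.09 in the arrays labelled morphant, against 7.52, 7.96 and 7.76 in controls (-1.54, SE 0.14, 2.90-fold), and 6.95 and 7.1 at 4 hpf, against 7.80 and 7.59 at 2.5 hpf (-0.67, SE 0.10, 1.59-fold). It was among the few members with a sizeable gap in both experiments.

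mettl3, the catalytic subunit of the enzyme that writes N6-methyladenosine on messenger RNA, is linked in zebrafish to the clearance of maternal RNA through readers of that mark. It had 6.72, 6.51 and 6.59 in the arrays labelled morphant, against 8.17, 7.70 and 8.11 in controls (-1.38, SE 0.14, 2.61-fold). It had 7.97 and 8.03 at 4 hpf, against 8.38 and 8.46 at 2.5 hpf (-0.42, SE 0.09). Here control replicate 2 was the lowest control, unlike in most members.

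snrpg and snrpf belong to the ring of 7 Sm proteins at the core of the spliceosomal particles. snrpg had 6.36, 6.35 and 6.17 in the arrays labelled morphant, against 7.00, 7.68 and 7.07 in controls, and 7.86 and 7.65 at 4 hpf, against 8.24 and 8.19 at 2.5 hpf (differences -0.96, SE 0.17, and -0.46, SE 0.10). snrpf had differences of -0.55 (SE 0.11) and -0.48 (SE 0.09). The remaining 6 members had differences from -0.67 to -0.51 and from -0.47 to -0.32. They were the spliceosome proteins srrm2 and slu7, the SR-related scaf1, scaf11 and thrap3b, and matr3l1.1, a matrin-type RNA-binding protein.

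Among the 8 members for chromatin and transcription the medians were -0.76 and -0.36. mbd3b encodes a subunit of the NuRD complex, which removes acetyl groups from histones and slides nucleosomes. It had 6.67, 6.51 and 6.78 in the arrays labelled morphant, against 8.47, 8.86 and 8.55 in controls (-1.97, SE 0.13, 3.93-fold), and 7.23 and 7.42 at 4 hpf, against 7.70 and 7.78 at 2.5 hpf (-0.41, SE 0.10). hmgn2, a nucleosome-binding protein that loosens chromatin, had 8.09, 7.69 and 7.44 in the arrays labelled morphant, against 8.80, 9.46 and 8.91 in controls (-1.32, SE 0.20, 2.49-fold). At 4 hpf hmgn2 had 6.81 and 6.89, against 7.40 and 7.50 at 2.5 hpf (-0.60, SE 0.09, 1.52-fold). The spread of hmgn2 between replicates was among the widest of the members in the first experiment and narrow in the second.

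dnmt3bb.2, a DNA methyltransferase that sets new methylation, had 6.17, 6.32 and 6.36 in the arrays labelled morphant, against 6.80, 7.31 and 6.98 in controls, and 6.54 and 6.46 at 4 hpf, against 6.71 and 6.96 at 2.5 hpf (-0.75, SE 0.14, and -0.33, SE 0.10). kdm5bb, a histone demethylase, had differences of -0.70 (SE 0.11) and -0.40 (SE 0.09). Of the general machinery, polr2eb, a subunit shared by the nuclear RNA polymerases, had -0.82 (SE 0.15) and -0.31 (SE 0.09), and med7, a Mediator subunit, had -0.64 (SE 0.12) and -0.32 (SE 0.10). The 2 DNA-binding stress regulators of the group were hsf2, a heat shock factor, at -0.76 (SE 0.17) and -0.32 (SE 0.09), and hif1ab, a hypoxia-inducible factor, at -0.58 (SE 0.11) and -0.40 (SE 0.09).

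The 5 mitochondrial members had the largest median difference in wild type, -0.53, with -0.74 in the first experiment. Mitochondria come from the egg, and they do not multiply much during cleavage. grpel2, a nucleotide exchange factor for the mitochondrial Hsp70 chaperone, had 6.68, 6.33 and 6.63 in the arrays labelled morphant, against 7.43, 7.79 and 7.52 in controls (-1.03, SE 0.14, 2.04-fold), and 6.66 and 6.91 at 4 hpf, against 7.40 and 7.52 at 2.5 hpf (-0.67, SE 0.10, 1.59-fold). ndufs6, a subunit of respiratory complex I, had differences of -0.71 (SE 0.16) and -0.57 (SE 0.10). mrpl42, a protein of the mitochondrial ribosome, had -0.94 (SE 0.18) and -0.53 (SE 0.09), with control replicate 2 well above the other controls at 7.17, against 6.35 and 6.68. tdh, a threonine dehydrogenase, and chchd2, a small intermembrane-space protein, had -0.74 (SE 0.15) and -0.57 (SE 0.16) in the first experiment, and each had -0.45 in the second (SE 0.14 and 0.09).

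The 9 members sorted under membranes, glycans and lipids had medians of -0.83 and -0.35, and 3 of them had some of the largest differences of all members in the first experiment. hs6st2, a sulfotransferase that modifies the heparan sulfate chains to which growth factors bind, had 7.19, 8.01 and 7.50 in the arrays labelled morphant, against 9.48, 9.96 and 9.68 in controls (-2.14, SE 0.20, 4.40-fold). fut9b.1, a fucosyltransferase, had 5.60, 5.66 and 5.46, against 7.36, 7.96 and 7.36 in controls (-1.98, SE 0.16, 3.95-fold). scpep1, a serine carboxypeptidase, had 6.26, 6.31 and 6.33, against 8.09, 8.21 and 8.25 in controls (-1.88, SE 0.10, 3.68-fold). As a peptidase, scpep1 matches the name of this group only loosely.

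In wild type these same 3 genes differed by far less. hs6st2 had 7.62 and 7.86 at 4 hpf, against 8.12 and 8.06 at 2.5 hpf (-0.35, SE 0.10). The difference was -0.45 (SE 0.10) for fut9b.1 and -0.35 (SE 0.09) for scpep1. stard14, of the lipid-binding START-domain family, had -1.12 (SE 0.17) and -0.40 (SE 0.10). tmem208 of the endoplasmic reticulum, svopl of a transporter family, tm9sf2 of the endosomes and Golgi, and adgra3, an adhesion G-protein-coupled receptor, had differences between -0.83 and -0.53 in the first experiment and between -0.33 and -0.30 in the second. vps52, part of a tethering complex at the Golgi, was dim both in the arrays labelled morphant and at 4 hpf, and was at least 1.29-fold lower than in controls and at least 1.02-fold lower than at 2.5 hpf.

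The 5 members of the ubiquitin and proteasome system had the smallest medians, -0.56 and -0.32. ubqln4, which carries ubiquitin-tagged proteins to the proteasome, had 6.51, 6.57 and 6.40 in the arrays labelled morphant, against 7.65, 7.76 and 7.54 in controls (-1.15, SE 0.11, 2.23-fold), and 6.52 and 6.73 at 4 hpf, against 6.85 and 7.03 at 2.5 hpf (-0.31, SE 0.10). psmd4b, a ubiquitin receptor of the proteasome's regulatory particle, had -0.55 (SE 0.17) and -0.45 (SE 0.10), and sem1, a small subunit of the same particle, had -0.56 (SE 0.12) and -0.30 (SE 0.09). The ubiquitin-conjugating enzymes ube2q2 and ube2e3 had -0.61 (SE 0.13) and -0.50 (SE 0.14) in the first experiment and -0.33 and -0.32 in the second (SE 0.10 each).

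Of the 5 members for signalling, the cytoskeleton and the nuclear pore, nup37, a scaffold nucleoporin, had the largest difference. It had 5.64, 5.74 and 5.73 in the arrays labelled morphant, against 6.87, 6.91 and 7.03 in controls (-1.23, SE 0.10, 2.35-fold), and 7.86 and 8.05 at 4 hpf, against 8.35 and 8.31 at 2.5 hpf (-0.38, SE 0.10). cnn3a, an actin-binding calponin, had -0.90 (SE 0.20) and -0.34 (SE 0.09). ppp2r3c, a regulatory subunit of a protein phosphatase, pdcd10a, a partner of kinases at cell junctions, and ywhaqb, a phosphoserine-binding adaptor, lay between -0.69 and -0.51 and between -0.40 and -0.32. For 3 members, si:dkey-33c12.4, si:ch211-157c3.4 and si:dkey-276j7.1, the annotation gives no named function, and their differences were -0.78, -0.68 and -0.57 in the first experiment and -0.41, -0.30 and -0.41 in the second.

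**Figure D2:**
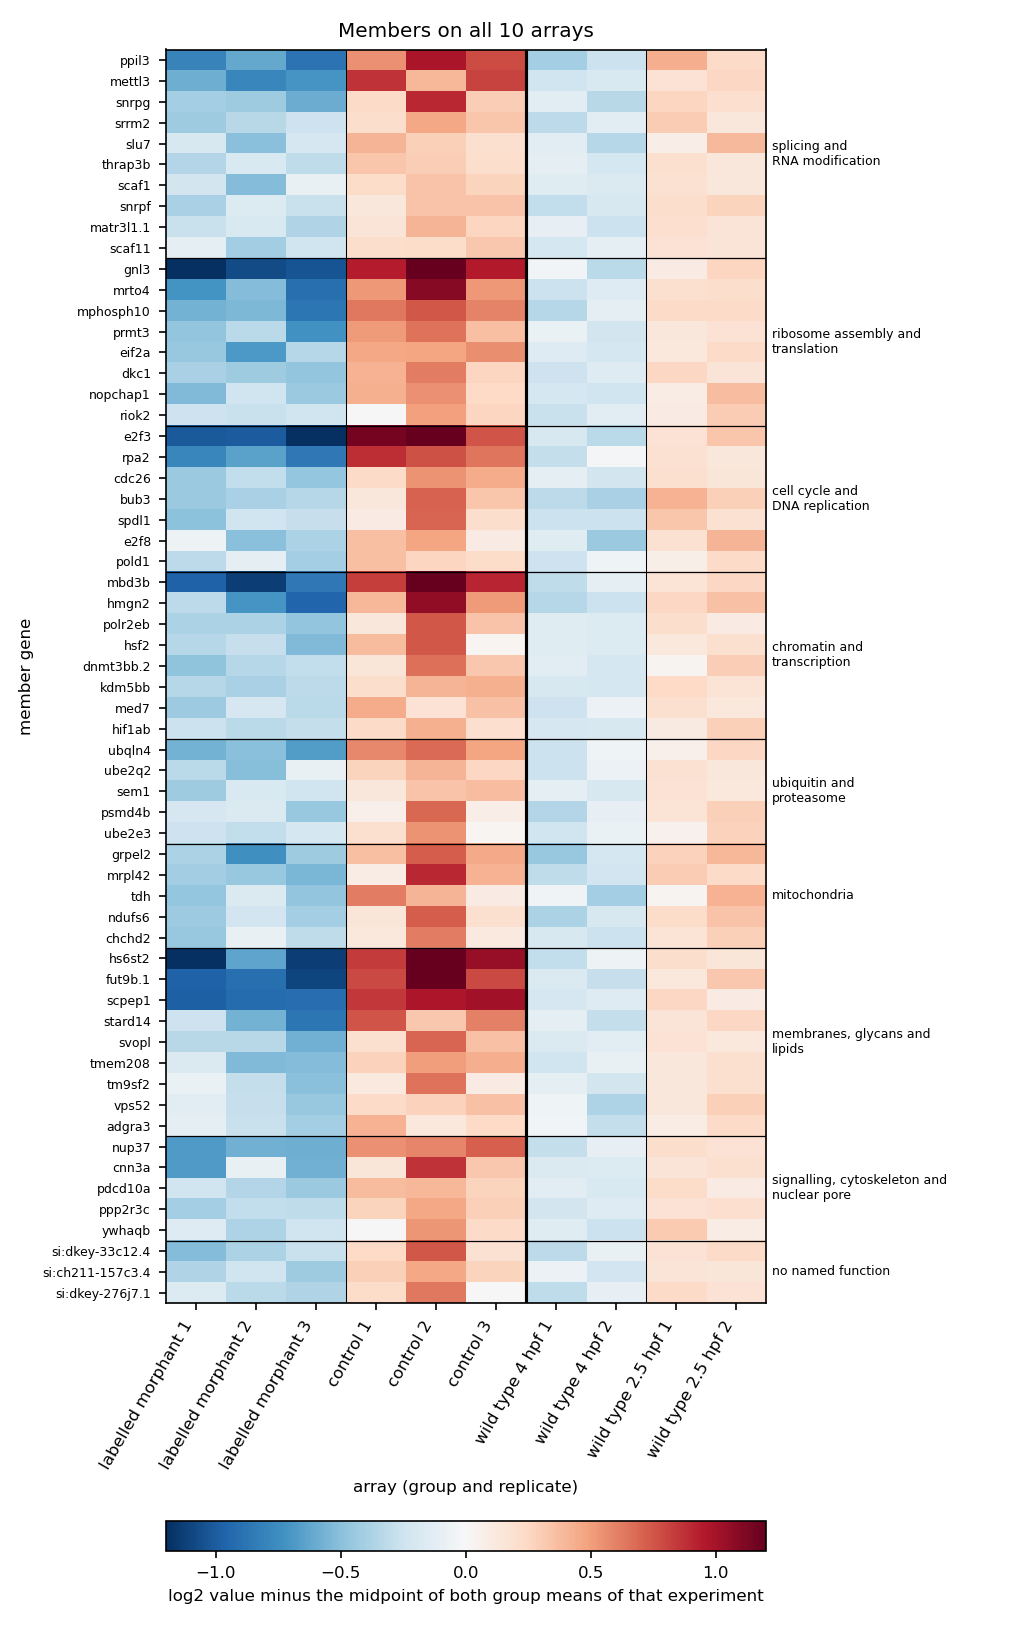
Rows are the 60 members sorted by role, columns are the 10 arrays, and colour is the log2 value minus the midpoint of both group means of that experiment, with colours saturated beyond 1.2 log2 units. Arrays labelled morphant and 4 hpf arrays are blue, control and 2.5 hpf arrays are red, and the contrast is deeper in the first experiment, where control replicate 2 is the reddest control for 43 members.

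**Figure D3:**
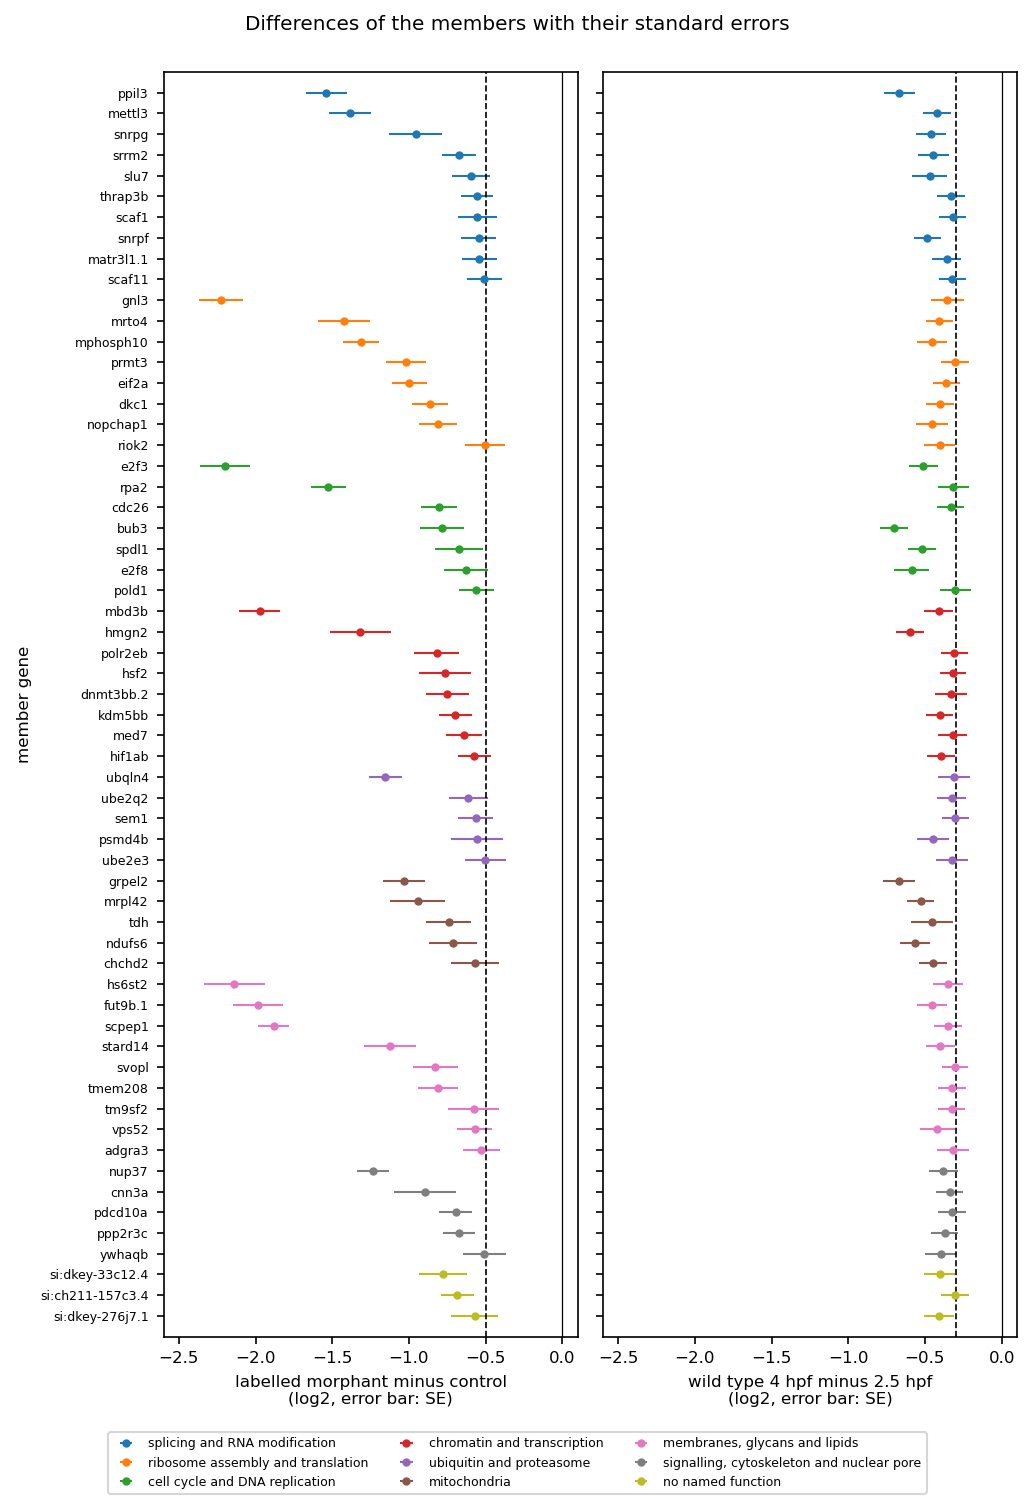
Points are the differences of mean log2 values of each member and bars their standard errors, for arrays labelled morphant minus controls on the left and 4 hpf minus 2.5 hpf on the right, coloured by role. On the left the points reach from -2.23 to -0.50, and on the right they stay between -0.70 and -0.30; the dashed lines are the thresholds.

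Among the controls of the first experiment, replicate 2 was most often the highest for the members. Control replicate 2 was the highest control in 43 of 60 members (71.7%) and the lowest in 4. The share was 36.0% over all bright genes, 62.1% over the 688 bright genes lower in the arrays labelled morphant but not at 4 hpf, and 34.0% over the 683 lower at 4 hpf but not in the arrays labelled morphant. Without that array 60 of 60 members were called lower, beside 3154 of all 15502 probe sets (3284 with it). The other arrays had entered the choice of members, so this count carries no test. The members' median difference was then -0.66, and 51 of the 60 still met the rule. Those that did not were spdl1, chchd2, psmd4b, si:dkey-276j7.1, riok2, tm9sf2, ywhaqb, matr3l1.1 and ube2e3.

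Levels were then set side by side across the experiments, after all 10 arrays were quantile-normalized together. Because the experiments appear to have been normalized apart by the authors, the experiment and the sample type cannot be told apart in this comparison, and the choice of members favours high controls and low 4 hpf values. On that scale controls at 4.3 hpf were above wild type at 4 hpf in 52 of 60 members (86.7%), with a median difference of 0.76. Over all bright genes the difference had a median of -0.08 and was positive in 2265 (45.2%), and over the 688 genes lower in arrays labelled morphant only it had a median of 0.54 and was positive in 563 (81.8%). For the 683 genes lower at 4 hpf only, controls were above 4 hpf in 204 (29.9%), with a median of -0.47.

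The arrays labelled morphant were below wild type at 4 hpf in 30 of 60 members, with a median difference of -0.00, about the same share as over all bright genes (2504 of 5006, median -0.00). It was 64.5% of the 688 genes lower in arrays labelled morphant only (median -0.21) and 41.3% of the 683 lower at 4 hpf only (median 0.12). The largest gaps between controls and 4 hpf were 2.80 for ube2q2, 2.64 for hmgn2 and 2.39 for gnl3. Another 8 members lay the other way, among them hsf2 at -1.22 and pold1 at -0.60. gnl3 had means of 6.36 in the arrays labelled morphant and 8.51 in controls, and of 6.13 at 4 hpf and 6.51 at 2.5 hpf. For gnl3 the controls at 4.3 hpf were thus the highest of the 4 groups on this scale, above the embryos at 2.5 hpf as well. This was not particular to gnl3. The members' median level was 8.25 in controls and 7.78 at 2.5 hpf, beside 7.91 and 8.06 over all bright genes. Members differed in this, with e2f3 at 8.34 in controls against 6.87 at 2.5 hpf, and fut9b.1 at 7.78 against 8.39.

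**Figure D4:**
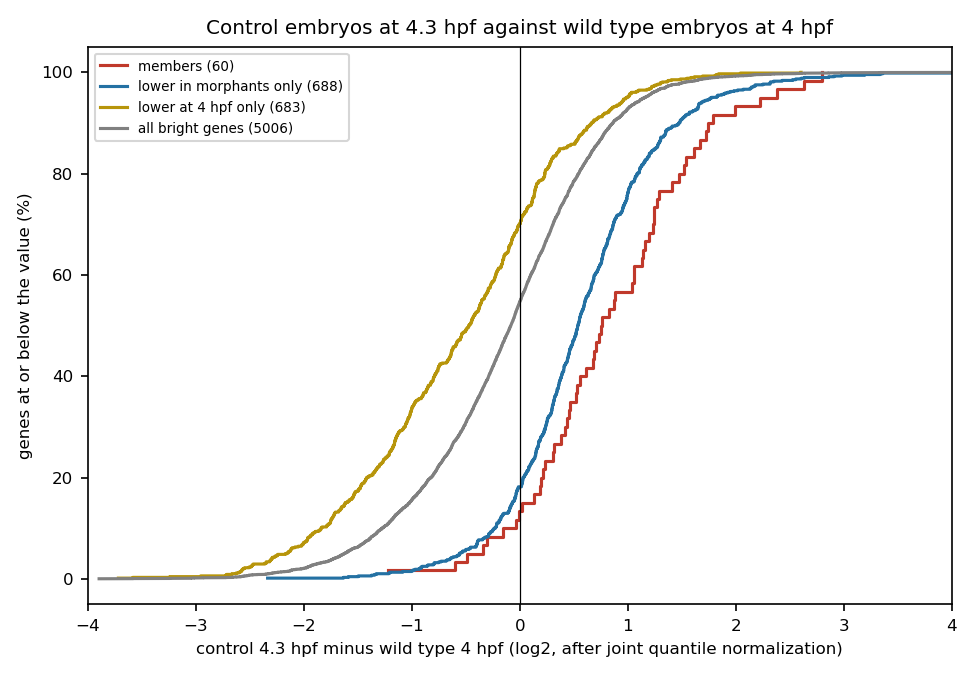
Each line gives the percentage of genes at or below a given difference between controls at 4.3 hpf and wild type at 4 hpf, in log2 units after joint quantile normalization. The line of the 60 members lies to the right, with a median of 0.76, beside 0.54 for the 688 genes lower in arrays labelled morphant only, -0.08 for all 5006 bright genes and -0.47 for the 683 genes lower at 4 hpf only.

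Several members are single subunits of complexes, and their partners were looked up after the members were known. Of the 5 Sm ring genes other than the members snrpf and snrpg, 3 were called lower in the arrays labelled morphant by limma and none higher, beside 21.2% of all probe sets called lower, and 1 of the 5, snrpd2, was dim in both groups. At 4 hpf none of the 5 was called lower and 2 were called higher. snrpd1 was lower by -1.55 in the arrays labelled morphant (adjusted p = 1.09e-05) and higher at 4 hpf by 0.42 (adjusted p = 0.00604), and snrpb was lower by -0.61 (adjusted p = 0.00129) and higher by 0.37 (adjusted p = 0.0131). snrpf and snrpg, chosen for being lower in both, thus differ in direction at 4 hpf from these partners.

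The partners of rpa2 did not share its lower level in the arrays labelled morphant, though rpa1 shared its lower level at 4 hpf. rpa1 was higher by 0.54 in the arrays labelled morphant (limma adjusted p = 0.0019) and lower by -0.54 at 4 hpf (adjusted p = 0.00192), and rpa3 was called in neither experiment (0.12 and -0.06). pold2, the partner of pold1, was lower by -0.95 in the arrays labelled morphant (adjusted p = 5.92e-05) and was not called at 4 hpf (-0.12, adjusted p = 0.386). pold1 itself was not called at 4 hpf either (-0.30, limma adjusted p = 0.056). nhp2, a partner of dkc1 in the H/ACA particles, was lower by -0.43 (limma adjusted p = 0.00708) and not called at 4 hpf. Of 3 measured spindle checkpoint genes other than bub3, 2 were called lower and none higher in the first experiment. None of the 3 was called at 4 hpf. Of 10 measured genes of the proteasome's regulatory particle other than the members psmd4b and sem1, 3 were called lower and none higher in the first experiment, a share near the 21.2% of all probe sets. In the second, none of the 10 was called lower and 1, psmd3, was called higher (0.33, adjusted p = 0.0218). e2f4, of the same family as e2f3 and e2f8, had -1.36 in the first experiment (adjusted p = 5.14e-05) and 0.06 in the second (adjusted p = 0.702). e2f5, also of that family, went the other way in the first experiment, at 2.67 (limma adjusted p = 5.95e-07). In the second it had -1.41 (limma adjusted p = 1.75e-05).

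Lists of genes by pathway, written with results of these data already known, place the members among their wider families, and 18 of the 60 are in a list. The list counts below stand beside 21.2% of all probe sets called lower and 21.3% higher in the first experiment. In the second the shares were 9.88% and 9.66%. These shares include dim probe sets and probe sets without a gene, while each list gene is represented by its brightest probe set. Lists and shares are therefore not on like terms. Ribosome biogenesis and transfer RNA genes were the list with the most members called lower in both experiments. Of its 90 measured genes, 46 were called lower and 4 higher in the arrays labelled morphant, with a median of -0.32, and 15 were called lower and none higher at 4 hpf, with a median of -0.03. The 7 called lower in both were the members dkc1, gnl3, mphosph10, mrto4 and riok2, together with ddx55, an RNA helicase, and nip7, a pre-ribosomal factor.

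Splicing and RNA processing genes were also mostly lower in the arrays labelled morphant, with 79 of 118 called lower and 3 higher (median -0.46). At 4 hpf, however, 9 were called lower and 23 higher (median 0.14), so the members slu7, snrpf, snrpg and srrm2 stood with hnrnpl and lsm7 as the 6 called lower in both. Translation factors and ribosomal proteins had 57 of 84 called lower and 4 higher in the arrays labelled morphant, against 1 lower and 26 higher at 4 hpf, with no gene called lower in both. First-wave zygotic genes had 57 of 80 called lower and 7 higher in the arrays labelled morphant, with 9 of the 80 dim in both groups, and held no member. At 4 hpf 43 of the 80 were called higher, but 44 of the 80 were dim in both groups there, and 27 of the calls were on genes that were not. fgf8a was called lower in both experiments and was not bright.

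Of 78 cell cycle and replication genes, 24 (30.8%) were called lower and 27 (34.6%) higher in the arrays labelled morphant. Both shares were above those of all probe sets, but none of the 78 was dim in both groups, unlike many of all probe sets. At 4 hpf 20 (25.6%) were called lower and 8 (10.3%) higher, the latter near the share of all probe sets. In the ubiquitin and proteasome list 40 of 92 were called lower and 15 higher in the first experiment, and 13 lower and 8 higher in the second. Of 111 mitochondrial genes, with ndufs6 as a member, 23 (20.7%) were called lower and 37 (33.3%) higher in the first experiment, beside 21.2% and 21.3% of all probe sets, and the list's median was 0.05. The classic maternal RNAs of the oocyte and egg, of which 35 were measured, had 3 called lower and 25 higher in the arrays labelled morphant and 10 lower and 2 higher at 4 hpf, and held no member.

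**Figure D5:**
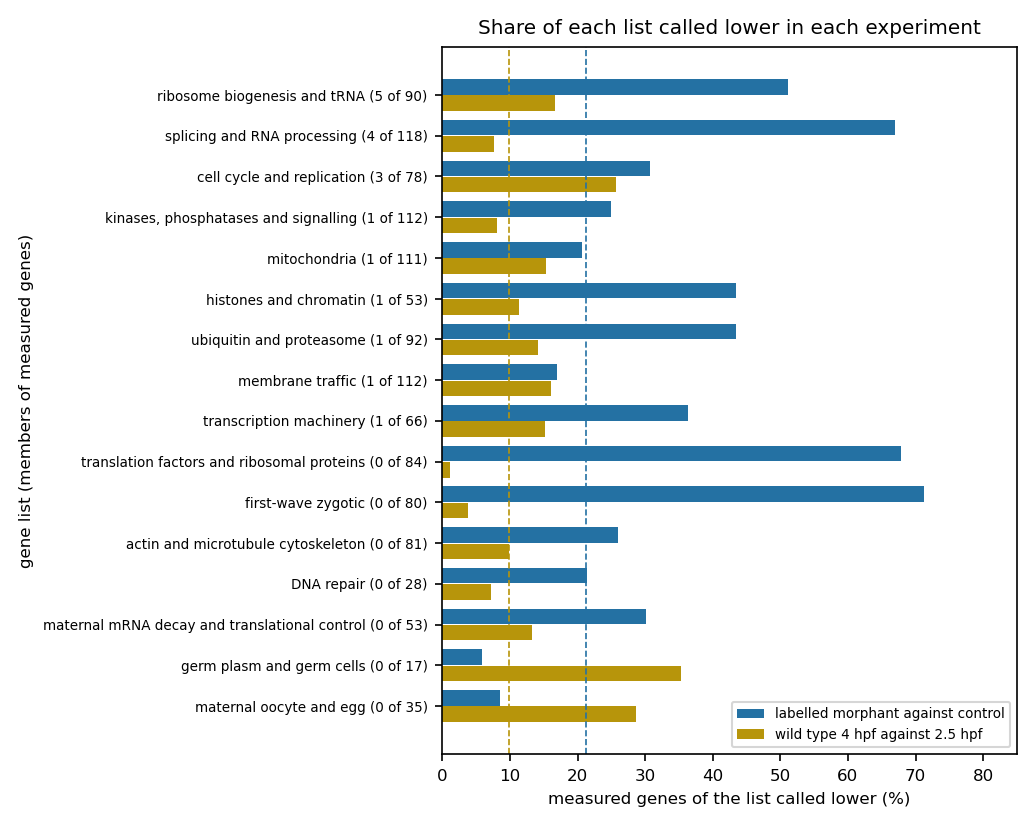
Bars give the percentage of measured genes of each list called lower by limma at an adjusted p below 0.05, in arrays labelled morphant against controls and in wild type at 4 hpf against 2.5 hpf, and the dashed lines give 21.2% and 9.88%, the shares over all probe sets. The numbers after each name are its members and its measured genes; the ribosome biogenesis list reaches 51.1% and 16.7%, and the splicing list 66.9% and 7.63%.

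Markers of early cell types differed in the first comparison, though not all in the same direction. The log2 summed level of 19 enveloping layer markers was 9.65 to 10.05 in the arrays labelled morphant, against 12.80 to 13.36 in controls, with 16 called lower, 13 of them not dim in both groups, and none higher; 5 of the 19 were dim in both groups. That of 14 yolk syncytial layer markers was 9.53 to 10.30 against 11.77 to 12.33, with 8 called lower, none higher and 7 dim in both groups. That of 9 germ cell markers was 12.39 to 12.52 in the arrays labelled morphant, against 10.89 to 11.17 in controls, with 6 called higher and none lower. This list shares buc and ddx4 with the list of maternal oocyte and egg RNAs. In the second experiment 18 of the 19 enveloping layer and 12 of the 14 yolk syncytial layer markers were dim in both groups. Of the 9 germ cell markers, 4 were called lower there and 1 higher. No member is in any marker list, and the part of these cells in the members' values was not tested.

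Some member genes have further probe sets that the choice did not use, and these show how far a difference belongs to the gene rather than to 1 probe set. There were 14 such probe sets for 13 members, though they measure the same arrays. In the first experiment 12 were above the control probe sets in a group, and 12 of these were lower in the arrays labelled morphant. By limma 11 were called lower and none higher, beside 21.2% of all probe sets called lower. In the second, 10 were above the control probe sets in a group, and 9 of these were lower at 4 hpf. Only 1 was called lower, bub3 at -0.32, and none higher, a share near the 9.88% of all probe sets called lower. The extra probe sets of slu7 and scaf1 had -0.52 and -0.57 in the first experiment and -0.04 each in the second, and that of ube2e3 had -0.27 and 0.17. For pold1 the extra probe set had -0.62 in the first experiment and -0.05 in the second. The lower level in the arrays labelled morphant was thus usually called on the other probe set as well, and the lower level at 4 hpf usually was not.

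The thresholds cut through a continuum. Just inside the first one were ube2e3 and riok2 at -0.50 and scaf11 at -0.51, and just outside it snu13a, metap2b and ube2l3a, all at -0.50 when rounded. Just inside the second were sem1, pold1 and si:ch211-157c3.4 at -0.30, and just outside it toporsb at -0.30, znf800a at -0.29 and uqcc2 at -0.29. In all, 18 members were within 0.1 of the first threshold and 22 within 0.05 of the second.

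The number of members depends on the scaling, with 92 genes when each array was centred on its median and 32 when arrays were scaled on their Bacillus spike-in probe sets. In the second experiment the calls rested on 2 arrays per group, so leaving 1 out left 1 array in a group. Fewer members were then called lower, as were fewer of all probe sets. The members' median difference was then between -0.41 and -0.36. Under all 3 other scalings and with any 1 array left out, 16 members kept their place: e2f3, bub3, mrto4, mphosph10, dkc1, eif2a, ppil3, mettl3, snrpg, mbd3b, hmgn2, grpel2, mrpl42, fut9b.1, stard14 and cnn3a. All these settings reapply the rule to the arrays that chose the members, and median centring kept all 60. The list is thus a description and carries no test.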

How the data were processed

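Total RNA of whole zebrafish embryos was hybridized to 10 arrays with 15617 probe sets. The deposited values are log2 intensities, for which the submitters' processing notes name affy and RMA (versions not given in the sources used here); each experiment appears to have been normalized apart, since array medians differ between them. After removal of 115 control probe sets, 15502 were tested within each experiment with limma 3.58.1 (lmFit and eBayes, Benjamini-Hochberg adjustment over all of them). Samples were grouped by the labels. The first experiment's controls and morphants came from separate populations of eggs, per the design; nothing says so of the second, so its p-values may measure technical spread. The number of arrays limits precision.

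Of the probe sets, 10795 had 1 gene, 135 several and 4572 none in the platform annotation; all 60 members matched RefSeq by Entrez ID. The rule for naming genes took the 30 members with the lowest sum of both differences, members on a pathway list or with an opposing probe set, the 3 genes on each side of each threshold, and genes of a list. Outside it, the other members, partner subunits, e2f4 and e2f5 are named and were chosen after their values were seen. Members and lists were chosen with earlier results of these data known. A dim gene's fold is a bound against the brightest of 17 tag control probe sets. Samples of the same replicate number deviated together in the first experiment (correlations 0.318, 0.202 and 0.114) and not in the second (-0.024). Alternatives were 3 scalings, other filters and thresholds, other probe sets, limma options, a replicate block and each array left out.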

Additional observations from a re-analysis of the deposited data

How the results depend on the processing

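The number of members was 92 with median centring, 32 with Bacillus spike-in scaling, 27 with an upper-quartile brightness filter, 9 at -0.5 or below in both experiments and 0 at -1 or below in both, and 54 to 69 with 1 array left out. The members' median difference was -0.51 with Bacillus scaling in the first experiment, and in the second -0.48 with median centring, -0.38 with joint quantile normalization and -0.41 to -0.36 with 1 array left out. With Bacillus scaling 1934 probe sets were called lower and 5416 higher in the first experiment (3284 and 3307 as deposited), and with median centring 2302 lower and 754 higher in the second (1532 and 1498 as deposited); the median of all probe sets was then 0.21 and -0.03, against -0.04 and 0.05 as deposited. With 1 array left out, 22 to 40 members were called lower in the second experiment and 57 to 60 in the first, and 827 to 1358 and 2733 to 3154 probe sets. The fit with fewer arrays has fewer degrees of freedom; otherwise the cause was not tested. The replicate number was also used as a block in both experiments, though samples of the same number deviated together in the first only. With it 60 members were called lower in each experiment, and 3464 and 1615 probe sets. Fewer members were called under some scalings. With Bacillus scaling 46 were called lower in the first experiment (60 as deposited), beside 1934 probe sets, and 55 in the second. With joint quantile normalization 60 were called lower in the first and 42 in the second (57 as deposited), the latter beside 1428 probe sets. Of 1452 single-gene values under an alternative, 1272 kept direction and call, 158 lost the call, 22 gained it and 0 changed direction. Members were chosen by direction and their groups did not overlap. Leaving an array out or changing the limma options therefore could not reverse a member, and nothing is read from that count. With 3 and 2 arrays per group, small differences could not be resolved.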

Other observations

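Beyond the 60 genes, 51 others were called lower in both experiments by limma (adjusted p below 0.05) without meeting the size or brightness thresholds. Among those on the pathway lists were edc3 and edc4, which promote removal of the cap from messenger RNA during its decay. edc3 was not bright. edc4 was lower by -0.40 in the arrays labelled morphant (adjusted p = 0.0321) and by -0.36 at 4 hpf (adjusted p = 0.0144). In the full decay and translational control list, 16 of 53 measured genes (30.2%) were called lower and 15 (28.3%) higher in the arrays labelled morphant. All probe sets had 21.2% and 21.3%. At 4 hpf the list had 7 lower (13.2%) and 5 higher (9.43%), beside 9.88% and 9.66%. Another 7 genes met both size thresholds but not the brightness rule.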
